A study of Homo sapiens with 5 samples.

Results

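Replication-dependent histone genes were examined in HCC827/GR cells and their parental HCC827 cells. HCC827 is a lung adenocarcinoma line with an exon 19 deletion of EGFR, and the labels give an exon 19 deletion for both groups. HCC827/GR is 1 resistant line, raised by rising doses of gefitinib, an inhibitor of the EGFR kinase, over more than 6 months. The data were RNA sequencing libraries of 3 HCC827/GR replicates (replicates 1, 2 and 3) and 2 HCC827 replicates (replicates 2 and 3), given as FPKM, fragments scaled to transcript length and to library size. No label says that the replicates were separate cultures, so a p-value measures only the spread between these libraries, which may be technical.

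The members were the 51 entries, of 37181 in the table, whose symbol begins with HIST1H, HIST2H, HIST3H or HIST4H and does not end as a numbered pseudogene. Where a symbol had several entries, the entry was chosen by the highest mean FPKM across the 5 libraries, so levels decided the entry and the difference between the groups did not. This touched 3 symbols. For HIST1H2BC the chosen entry had a mean of 131.6 FPKM and the other 0.647, for HIST1H2BG they had 4.85 and 0.456, and for HIST1H2BO 2.88 and 0. GENCODE release 29 lists 76 genes with such names. Of these, 51 are members, 8 lie within the entry of another symbol and 17 had no entry used here.

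A cell that copies its DNA needs new histones at once, and these genes supply them. Histones H2A, H2B, H3 and H4 form the core around which DNA is wrapped, and H1 binds the DNA between cores. Most of these mRNAs have no intron and, in place of a poly(A) tail, end in a conserved stem-loop that is bound by SLBP, the stem-loop binding protein. The genes lie in clusters and many encode the same protein. Of the members, 35 lie on chromosome 6 and 15 on chromosome 1, with HIST4H4 on chromosome 12. They comprise 4 H1, 12 H2A, 15 H2B, 9 H3 and 11 H4 genes. GENCODE calls 47 of them protein coding and 4 pseudogenes.

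The stem-loop was searched for in the GENCODE transcripts (GRCh38). It was found in 25 members, and in 24 of the 28 members whose transcript runs at least 25 bases past the coding sequence. Of all 19702 genes with a protein-coding transcript, 36 hold it (0.183%). Its 16-base core took 5 forms among the members. An example of each is shown because SLBP, which differed between the groups, binds this element. Capitals mark the core and lower case the flanking bases.
HIST2H2AA3, chr1:149842218-149842243, minus strand: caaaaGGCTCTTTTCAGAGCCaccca
HIST1H4B, chr6:26026896-26026921, minus strand: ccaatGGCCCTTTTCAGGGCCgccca
HIST1H2BC, chr6:26123467-26123492, minus strand: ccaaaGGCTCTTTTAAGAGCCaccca
HIST2H4B, chr1:149860764-149860789, minus strand: ccaaaGGCCCTTTTTAGGGCCgacca
HIST1H2AG, chr6:27133510-27133535, plus strand: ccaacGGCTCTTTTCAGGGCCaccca
The form in HIST2H2AA3 was the commonest, with 13 members, followed by that of HIST1H4B with 5 and that of HIST1H2BC with 4. The form of HIST2H4B was shared by 2 members, and that of HIST1H2AG was found in HIST1H2AG alone. No match says only that the letters are absent from the annotated transcript, and the transcripts of 19 members end at or within 25 bases of the stop codon.

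Copies of these genes share sequence to different degrees, which limits what the reads of any 1 gene can show. The 47 protein-coding members encode 25 distinct proteins, and 27 of them share their protein with another member. All 11 H4 members encode 1 protein of 103 residues. Their coding sequences nevertheless differ, as the first 80 coding bases of 4 H4 genes show, with capitals marking bases that differ from HIST1H4B.
HIST1H4B, chr6:26027173-26027252, minus strand: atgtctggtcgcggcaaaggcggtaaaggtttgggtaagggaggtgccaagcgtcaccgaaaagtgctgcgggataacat
HIST1H4C, chr6:26103948-26104027, plus strand: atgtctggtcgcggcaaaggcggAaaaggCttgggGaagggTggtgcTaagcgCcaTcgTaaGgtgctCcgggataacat
HIST1H4E, chr6:26204645-26204724, plus strand: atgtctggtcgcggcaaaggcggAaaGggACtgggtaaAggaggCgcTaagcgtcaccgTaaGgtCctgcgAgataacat
HIST1H4J, chr6:27824125-27824204, plus strand: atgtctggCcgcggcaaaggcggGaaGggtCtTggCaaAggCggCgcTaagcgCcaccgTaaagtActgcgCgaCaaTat
HIST1H4C, HIST1H4E and HIST1H4J differed from HIST1H4B at 10, 11 and 16 of these bases. Over all 309 coding bases, HIST1H4B and HIST1H4C were 83.5% identical. HIST2H2AA3 and HIST2H2AA4, H2A genes of chromosome 1, were the opposite case. The same stretch is shown for both and for HIST2H2AC, with capitals marking bases that differ from HIST2H2AA3.
HIST2H2AA3, chr1:149842619-149842698, minus strand: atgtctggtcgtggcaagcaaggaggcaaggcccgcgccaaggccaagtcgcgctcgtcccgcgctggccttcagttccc
HIST2H2AA4, chr1:149851114-149851193, plus strand: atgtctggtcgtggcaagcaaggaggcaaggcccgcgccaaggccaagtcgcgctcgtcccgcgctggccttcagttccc
HIST2H2AC, chr1:149886975-149887054, plus strand: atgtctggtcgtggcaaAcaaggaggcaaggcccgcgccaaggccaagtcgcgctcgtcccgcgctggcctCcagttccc
HIST2H2AA3 and HIST2H2AA4 had identical coding sequences over 390 bases, and HIST2H2AC differed from them at 2 of the 80 bases shown. HIST2H2AA4 had no entry of its own. Its transcript lay in the entry named HIST2H2AC.

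Sequence shared with other genes was measured as the percentage of a member's windows of a read's length that occur in another GENCODE gene. At 50 bases, 33 of the 51 members shared at least 1 window, 9 shared at least 90% of their windows and 7 shared all of them. HIST2H2AA3, HIST2H3A, HIST2H3C, HIST2H4A and HIST1H4K shared 100% at 50 bases, and HIST2H4B shared 95.1%. HIST1H4J shared 81.2%, all with HIST1H4K, whose coding sequence is identical to its own. HIST1H2AE, HIST1H3C, HIST1H4C and HIST1H4E shared 0%, so none of their windows of that length occurs in another annotated gene.

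The level of the members was uneven. Averaged across the 5 libraries, 16 of the 51 reached 10 FPKM, 4 reached 100 FPKM, and 10 stayed under 0.5 FPKM. The highest was the entry of HIST2H2AC, an H2A gene, with a mean of 197.9 FPKM. HIST1H2AE (H2A) had 148.1 FPKM, HIST2H2AA3 (H2A) 143.6 FPKM and HIST1H2BC (H2B) 131.6 FPKM. The leading H4, HIST1H4B, had 93.7 FPKM and the leading H3, HIST1H3C, 69.3 FPKM. H1 was nearly unrepresented, since the highest H1 member, HIST1H1B, had a mean of 1.24 FPKM and HIST1H1C was listed at 0 in all 5 libraries. The heat map of all members shows this order within each class.

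**Figure D1:**
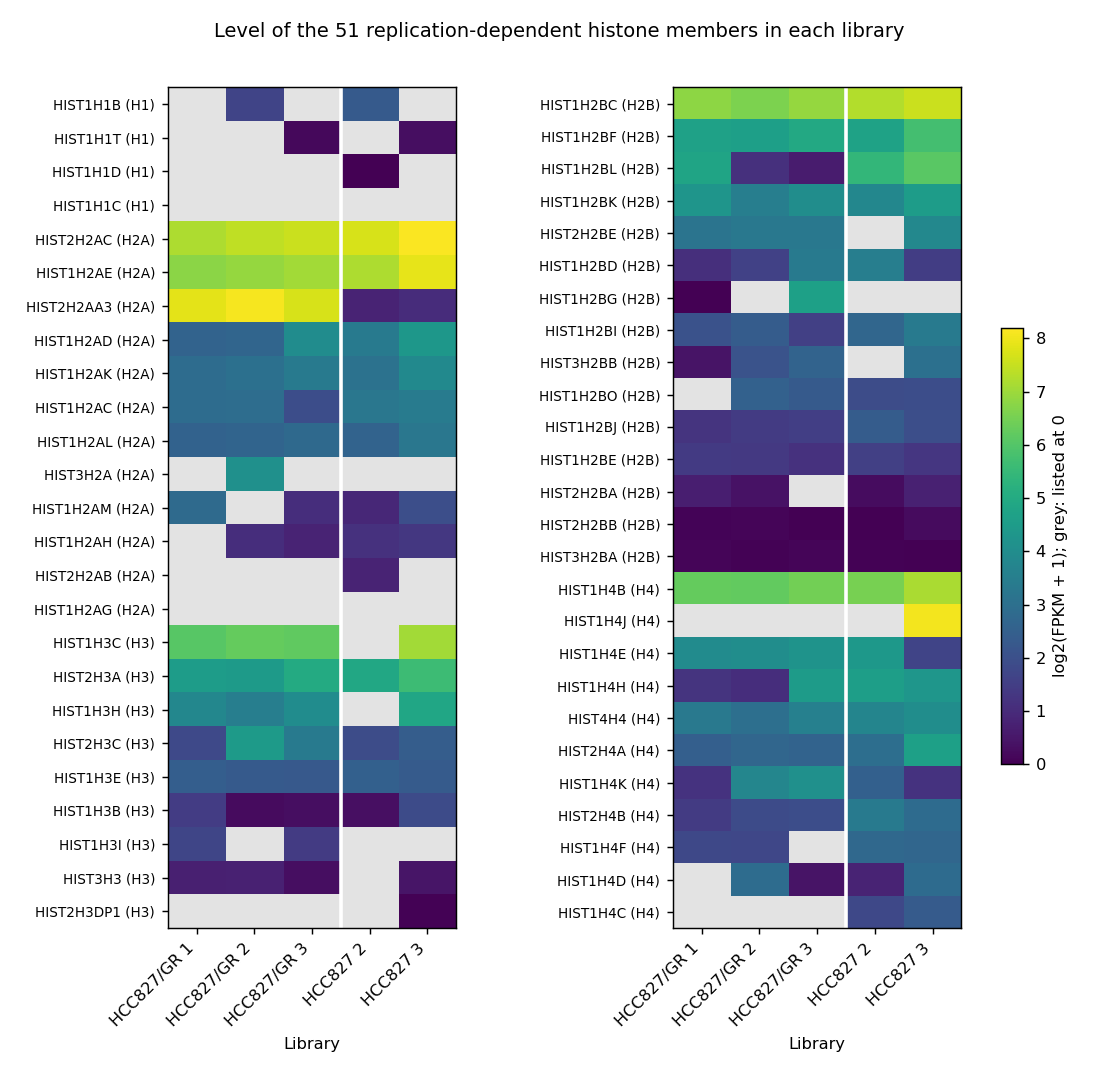
Level of each of the 51 members (rows, histone class in parentheses, ordered by mean within a class) in each library (columns, HCC827/GR to the left of the white line), as log2(FPKM + 1). Grey cells were listed at 0. HIST2H2AA3 is bright in the 3 HCC827/GR libraries and dark in both HCC827 libraries, and HIST1H4J has a value in HCC827 replicate 3 alone.

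A value of 0 was frequent, also among well expressed members. Of members above 0 in any library 42.9% were listed at 0 in another, of those reaching 5 FPKM 31.2%, and of the 16 with a mean of at least 10 FPKM, 3 were. The members listed at 0 numbered 13, 11 and 11 in HCC827/GR replicates 1, 2 and 3, and 13 and 8 in HCC827 replicates 2 and 3. Of the 51 members, 28 were above 0 in all 5 libraries, 21 were listed at 0 in some libraries and 2 (HIST1H1C and HIST1H2AG) in all. HIST1H3C, 1 of the most abundant members, had 65.9, 75.2 and 72.2 FPKM in HCC827/GR and 133.0 FPKM in HCC827 replicate 3, but was listed at 0 in HCC827 replicate 2. HIST1H3H, which encodes the same H3 protein, had 12.9, 10.4 and 14.7 FPKM in HCC827/GR, 27.9 FPKM in HCC827 replicate 3 and again 0 in HCC827 replicate 2. HIST1H4J was listed at 0 in 4 libraries and at 265.9 FPKM in HCC827 replicate 3 there, above every library of HIST1H4B. In each of these genes the 2 HCC827 replicates lay further apart than the group means.

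The zeros went with exon number. Among members that reached 5 FPKM in at least 1 library, 10 of 25 with a single exon (40%) and 0 of 7 with several exons were listed at 0 in some library. Among other protein-coding entries that reached the same level, the counts were 40 of 53 with a single exon (75.5%) and 15 of 6097 with several exons (0.246%). Zeros were not limited to members with shared reads, because 14 of the 27 members with under 5% of their 50-base windows shared were listed at 0 in some but not all libraries, against 0 of the 9 members with at least 90% shared. A 0 here therefore says that the table lists 0, and the number of reads behind it is unknown. The part of assembly and mapping in these zeros was not tested.

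**Figure D2:**
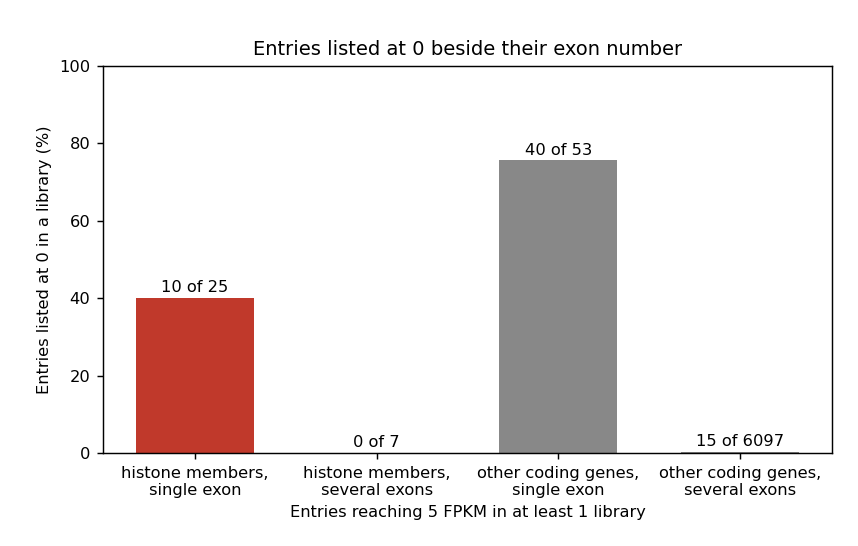
Percentage of entries listed at 0 in at least 1 of the 5 libraries, among entries that reached 5 FPKM in at least 1 library, for members (red) and other protein-coding entries (grey), by the number of exons in GENCODE. The counts stand above the bars, and both single-exon groups (40% and 75.5%) stand far above the entries with several exons.

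The spread between replicates was correspondingly wide. The median SD of a tested member within its group was 0.748 on the log2(FPKM + 1) scale. It was 0.863 for the 112 other tested protein-coding entries with a single exon and 0.156 for the 10826 with several exons. Of the 28 members above 0 in all libraries, 6 kept their highest library within 2 times their lowest, and 11 ranged over more than 5 times. HIST1H2BL, an H2B gene, had 26.5 FPKM in HCC827/GR replicate 1 but 1.18 and 0.532 FPKM in replicates 2 and 3, against 42.1 and 67.7 FPKM in HCC827.

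HCC827/GR was then compared with HCC827, the comparison the study was designed for, on log2(FPKM + 1). A total of 41 members had a mean of at least 0.5 FPKM and were tested. At an adjusted p under 0.05 (limma, Benjamini-Hochberg over all 16189 entries tested), 1 member was called higher and 2 lower. Over all entries tested, 5.26% were called higher and 5.71% lower, so the members' counts were near the background. At an unadjusted p under 0.05 (limma) there were 9 members, 8 of them lower in HCC827/GR. The share of all tested entries at that threshold was not counted, so these numbers cannot say whether the members differ from the background.

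HIST2H2AA3 was the member called higher. It had 234.3, 272.4 and 209.5 FPKM in HCC827/GR and 0.780 and 1.05 FPKM in HCC827. The groups did not overlap and lay far apart, with a mean of 238.7 ± 31.7 FPKM (SD, n = 3) against 0.917 ± 0.193 FPKM (SD, n = 2). The log2 fold change was 6.96 (standard error 0.15, limma adjusted p = 0.00157). The call rests on 2 HCC827 libraries. A further column with a parental name matched no deposited sample and was not analysed, but its HIST2H2AA3 value was close to those of HCC827/GR, so whether the difference holds for the parental line is uncertain. This entry shares every 50-base window with HIST2H2AA4, which lies in the entry of HIST2H2AC. That entry moved the other way, with 146.4, 168.3 and 185.8 FPKM in HCC827/GR and 208.4 and 280.7 FPKM in HCC827 (log2 fold change −0.54, standard error 0.18, limma adjusted p = 0.147). Summed over both entries, the levels were 380.7, 440.7 and 395.3 FPKM in HCC827/GR and 209.2 and 281.7 FPKM in HCC827. The sums still did not overlap, at 405.6 ± 31.3 FPKM (SD, n = 3) against 245.5 ± 51.3 FPKM (SD, n = 2). How the reads were divided between these identical genes was not tested. The sum over both entries was chosen after their values were seen.

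HIST1H4C and HIST2H4B, both H4 genes, were the members that fell. HIST1H4C was listed at 0 in all 3 HCC827/GR libraries and at 2.44 and 4.08 FPKM in HCC827. It was the only member listed at 0 throughout one group and above 0 throughout the other, and it passed the filter on low values through HCC827 alone. Its difference in log2(FPKM + 1) was −2.06 (standard error 0.20, limma adjusted p = 0.00996). HIST2H4B had 1.71, 2.67 and 2.82 FPKM in HCC827/GR and 9.25 and 6.25 FPKM in HCC827. The groups did not overlap, and the log2 fold change was −1.36 (standard error 0.23, limma adjusted p = 0.0318). HIST2H4A, with the same coding sequence, had 4.59, 5.495 and 5.16 FPKM in HCC827/GR and 6.85 and 24.5 FPKM in HCC827 (limma adjusted p = 0.214). HIST2H4A and HIST2H4B together had 6.30, 8.16 and 7.99 FPKM in HCC827/GR and 16.1 and 30.8 FPKM in HCC827, again without overlap. The call of HIST2H4B did not hold when any 1 of the 5 libraries was left out (adjusted p 0.0694 to 0.137).

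Several abundant members had lower values in HCC827/GR without passing the threshold. HIST1H2BC, the most abundant H2B gene, had 109.9, 93.96 and 117.4 FPKM in HCC827/GR and 152.7 and 184.1 FPKM in HCC827. Its groups did not overlap, and the log2 fold change was −0.65 (standard error 0.15, limma adjusted p = 0.0640). HIST1H2AE, an H2A gene with no shared windows, had 107.5, 117.7 and 133.8 FPKM in HCC827/GR and 143.8 and 237.8 FPKM in HCC827 (log2 fold change −0.63, standard error 0.25, limma adjusted p = 0.190). HIST1H4B had 75.2, 73.4 and 87.2 FPKM in HCC827/GR and 89.995 and 142.8 FPKM in HCC827 (log2 fold change −0.53, standard error 0.23, limma adjusted p = 0.222). In each of these genes both HCC827 libraries lay above all 3 HCC827/GR libraries, and replicate 3 was the higher of the HCC827 libraries. Without HCC827 replicates 2 and 3 in turn, the log2 fold change of HIST1H2AE was −0.99 and −0.27, and that of HIST1H4B −0.86 and −0.20. That of HIST2H2AC, given above, was −0.75 and −0.33.

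Others of the 12 most abundant members showed no order between the groups. HIST1H2BF, an H2B gene, had 23.8 to 29.8 FPKM in HCC827/GR and 25.4 and 52.7 FPKM in HCC827. HIST2H3A, an H3 gene identical in coding sequence to HIST2H3C, had 21.3 to 30.9 FPKM and 29.3 and 48.2 FPKM. HIST1H2BK, an H2B gene, had 10.5 to 18.6 FPKM and 12.9 and 22.2 FPKM. In each of these genes the groups overlapped. The entry of HIST1H2BK holds 1 assembled transcript and no GENCODE transcript of the gene. Of the gene's 50-base windows, 74.1% occur in another gene. HIST1H4E had 14.4, 15.3 and 17.6 FPKM in HCC827/GR, while HCC827 gave 19.9 FPKM in replicate 2 and 2.21 FPKM in replicate 3, on either side of them. The log2 fold changes of these 4 members lay from −0.60 to 1.03, with adjusted p from 0.251 to 0.722 (limma). They depended on which HCC827 library was kept. HIST1H4E stood at 2.38 without replicate 2 (limma adjusted p = 0.0345) and at −0.32 without replicate 3. Without replicates 2 and 3 in turn, HIST1H2BF stood at −0.98 and 0.041, HIST2H3A at −0.95 and −0.25, and HIST1H2BK at −0.59 and 0.15. HIST1H2BK stood at −0.0087 without HCC827/GR replicate 2 and at −0.39 without HCC827/GR replicate 1.

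**Figure D3:**
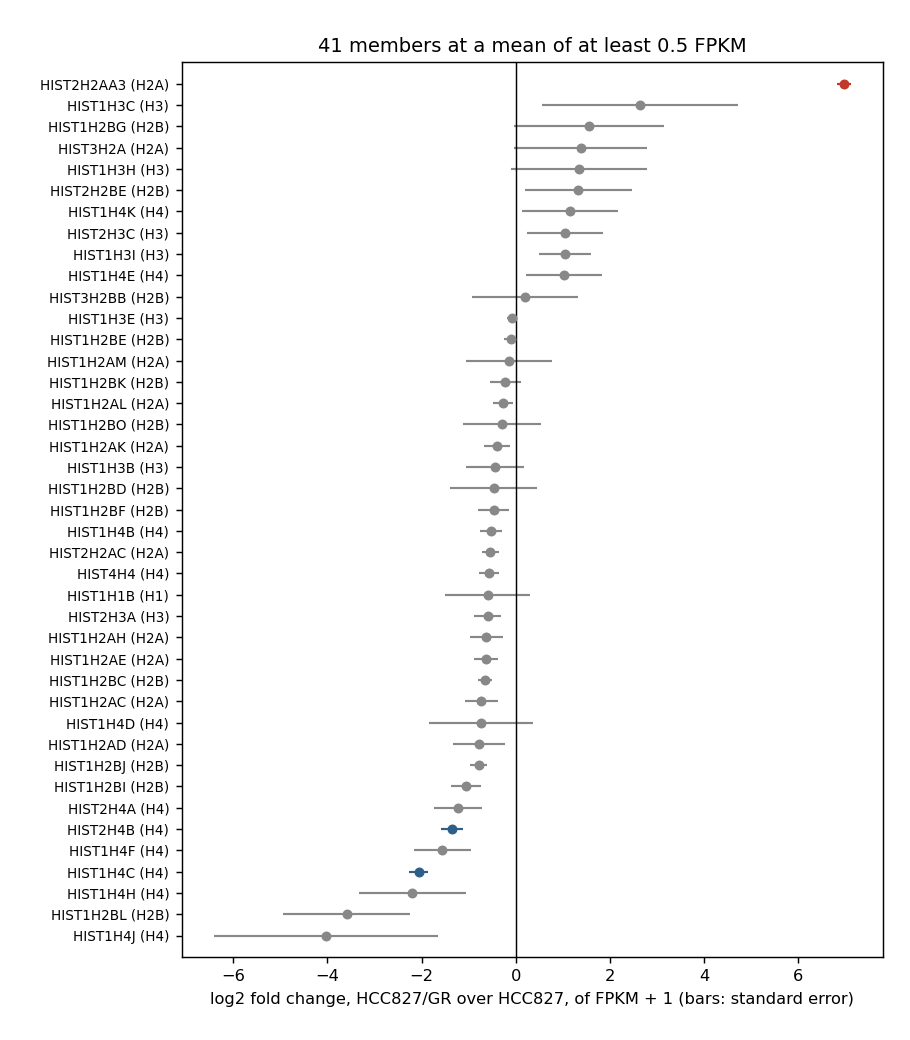
Log2 fold change of FPKM + 1 (x axis, HCC827/GR over HCC827) with its standard error (bars) for the 41 tested members (rows, histone class in parentheses). Red marks the member called higher (HIST2H2AA3, 6.96), blue the 2 called lower (HIST1H4C, −2.06, and HIST2H4B, −1.36), and grey the 38 others.

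Across all members, tested or not, 36 had a lower mean and 13 a higher mean in HCC827/GR, and 2 were at 0. The median log2 fold change over the 51 members was −0.29, against 0 over all entries. It was −0.59 without HCC827 replicate 2 and −2.16e-05 without HCC827 replicate 3, so its size depended on which parental library was kept. Over the tested members it was −0.47, against 0.00143 over all tested entries. Every HCC827/GR library lay below every HCC827 library in 14 of the 41 tested members (34.1%), where 23.4% of all tested entries did so. Every HCC827/GR library lay above in 1, HIST2H2AA3 (2.44%), where 22.8% of all tested entries did so. Leaving out a library can only raise these counts, and without HCC827 replicate 2 the first was 26, while without HCC827 replicate 3 the second was 5. Of the 10 untested members, the pseudogene HIST3H2BA lay wholly above, with 0.0849 FPKM in its highest library, and none lay wholly below. By class, the median log2 fold change over all members was −0.40 for H2A, −0.22 for H2B, 0.35 for H3, −1.22 for H4 and −0.047 for H1. The H3 value was that of HIST3H3, untested at a mean of 0.39 FPKM and listed at 0 in HCC827 replicate 2. HIST1H3C and HIST1H3H, both higher than it in log2 fold change, were also listed at 0 there. The H4 value was that of HIST2H4A, with 6.85 and 24.5 FPKM in HCC827. H1 members lay near 0 FPKM, and no class median was computed without each library. Lower means in HCC827/GR were found for 9 of 11 H4, 11 of 15 H2B, 8 of 12 H2A, 5 of 9 H3 and 3 of 4 H1 members.

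The summed level of the members did not separate the groups. It was 936.5, 1018 and 1079 FPKM in HCC827/GR and 860.8 and 1655 FPKM in HCC827, or 0.558%, 0.706%, 0.696%, 0.620% and 1.02% of the table. Without HIST2H2AA3, a sum chosen, like those below without HIST2H2AA3 or HIST1H4J, after the values were seen, the levels were 702.2, 745.4 and 869.4 FPKM in HCC827/GR and 860.0 and 1654 FPKM in HCC827. The groups then overlapped only between HCC827/GR replicate 3 and HCC827 replicate 2, and with HIST1H4J also removed HCC827 replicate 3 stood at 1389 FPKM. The H2A members summed to 517.3, 600.3 and 563.9 FPKM in HCC827/GR and 386.3 and 575.5 FPKM in HCC827, which overlapped, with the higher mean in HCC827/GR (560.5 against 480.9 FPKM). Without HIST2H2AA3 the H2A sums were 283.0, 327.9 and 354.4 FPKM against 385.6 and 574.4 FPKM, without overlap. Every sum taken without HIST2H2AA3 still holds its copy HIST2H2AA4, identical in coding sequence, within the entry of HIST2H2AC. Such a sum removes a member that was high in HCC827/GR alone, so its lower level there shows nothing further. The 11 H4 members summed to 110.0, 126.2 and 161.8 FPKM in HCC827/GR and 175.2 and 492.9 FPKM in HCC827. HIST1H4J made up 265.9 FPKM of the last value, and without it HCC827 replicate 3 stood at 227.0 FPKM and the HCC827 mean at 201.1 FPKM in place of 334.1 FPKM, against 132.7 FPKM in HCC827/GR. H4, with or without HIST1H4J, and H2B did not overlap between the groups. The H2B members gave 196.6, 156.3 and 219.6 FPKM against 258.1 and 366.4 FPKM. H3 did overlap, at 112.6, 132.8 and 133.4 FPKM against 37.1 and 220.5 FPKM, since HIST1H3C and HIST1H3H were listed at 0 in HCC827 replicate 2. Classes were assigned by symbol, so the sums are not pure. The H3 entry of HIST2H3C also holds the H2B gene HIST2H2BF. Among H2A entries, that of HIST1H2AL holds the H2B gene HIST1H2BN, and that of HIST1H2AM the H3 gene HIST1H3J.

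**Figure D4:**
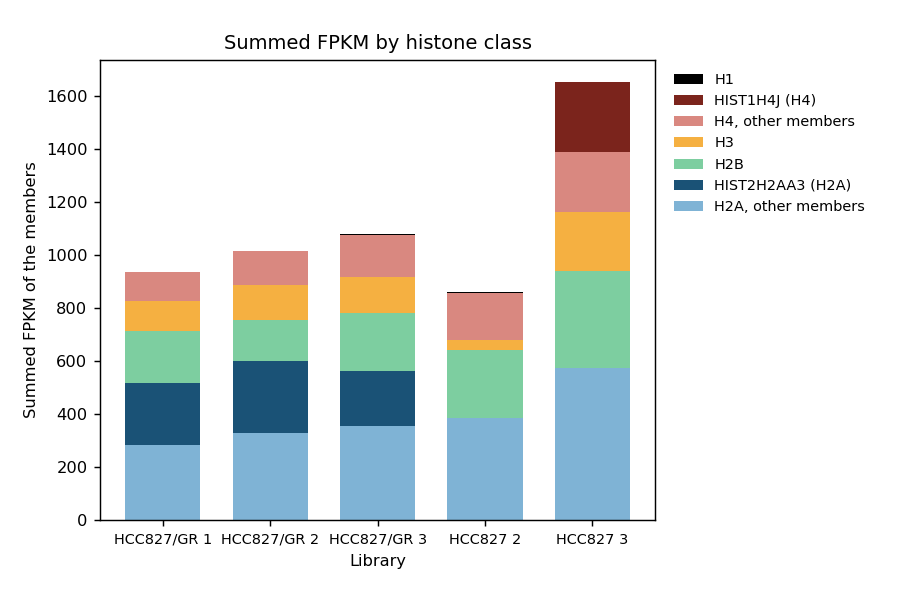
Summed FPKM of the 51 members in each library (bars), divided by histone class, with HIST2H2AA3 and HIST1H4J drawn apart. HIST2H2AA3 makes up 209.5 to 272.4 FPKM of the HCC827/GR bars and about 1 FPKM of the HCC827 bars, and HCC827 replicate 3 has the tallest bar at 1655 FPKM.

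When copies that encode the same protein were summed before the fit, none of the 5 sums was called. An unadjusted p under 0.05 (limma) was found for 1 sum, with no share over all entries counted at that threshold. The H4 sum had a log2 fold change of −1.16 (standard error 0.48, limma adjusted p = 0.206), with HIST1H4J included. The sum of the H2B genes HIST1H2BC, HIST1H2BE, HIST1H2BF, HIST1H2BG and HIST1H2BI was 139.9, 123.5 and 174.6 FPKM in HCC827/GR and 185.5 and 247.6 FPKM in HCC827 (log2 fold change −0.57, standard error 0.21, limma adjusted p = 0.174). The groups of the H2B sum did not overlap. With the copies summed, 1 member was called higher (HIST2H2AA3) and 0 lower.

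Library composition moved beside these levels. Protein-coding entries held 67.3% to 77.6% of the FPKM in HCC827/GR, and 79.3% and 70.9% in HCC827 replicates 2 and 3. RN7SK, an abundant nuclear RNA without a poly(A) tail, was listed at 10154 FPKM in HCC827/GR replicate 1, at 5286 FPKM in HCC827 replicate 3 and at 0 in the other 3 libraries. RN7SL2, the RNA of the signal recognition particle, had 497.0 FPKM in HCC827/GR replicate 1, 736.2 and 1010 FPKM in HCC827, and under 1 FPKM in the other two. Both RNAs differed between libraries of the same group, and the part of library composition in the histone levels was not tested. Of the lung epithelial markers, 8 of 10 had an entry, none at 0, and their summed level was 446.7 to 579.3 FPKM in HCC827/GR and 1139 and 1243 FPKM in HCC827. The 7 fibroblast markers summed to 2.72 to 3.44 FPKM and the 4 leukocyte markers with an entry to 0.115 to 0.378 FPKM in the 5 libraries. The 4 endothelial markers summed to at most 0.108 FPKM in HCC827/GR and to 4.44 and 3.38 FPKM in HCC827. PECAM1 accounted for nearly all of the latter, at 4.34 and 3.32 FPKM, and was listed at 0 in HCC827/GR. The part of these marker differences in the histone levels was not tested.

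The genes that make and remove histone mRNA were read from the same fit. Of 24 genes in the list, 22 had an entry and all were tested. A total of 4 fell in HCC827/GR and 0 rose, where 5.71% of all tested entries were called lower and 5.26% higher, and the median log2 fold change was −0.24. Without overlap, 10 genes lay below and 5 above (background 23.4% and 22.8%). SLBP, which binds the stem-loop shown above and carries histone mRNA through processing and translation, had 9.17, 9.33 and 13.8 FPKM in HCC827/GR and 25.9 and 21.4 FPKM in HCC827. The groups did not overlap (log2 fold change −1.08, standard error 0.21, limma adjusted p = 0.0421). CSTF2, a subunit of the cleavage machinery, had 7.79, 6.74 and 7.95 FPKM in HCC827/GR and 15.8 and 17.9 FPKM in HCC827. The groups did not overlap (log2 fold change −1.07, standard error 0.12, limma adjusted p = 0.0115). LSM11, a subunit of the U7 particle that processes the histone mRNA end, had 0.595, 0.700 and 0.7501 FPKM against 1.56 and 1.67 FPKM. Its log2 fold change was −0.64 (standard error 0.11, limma adjusted p = 0.0354). ERI1, an exonuclease that trims the stem-loop during histone mRNA decay, had 4.505, 3.84 and 2.73 FPKM against 7.56 and 7.68 FPKM. Its log2 fold change was −0.90 (standard error 0.19, limma adjusted p = 0.0498). LSM11 and ERI1 did not overlap between the groups either. These 4 calls were lost in some alternative fits, ERI1 in 12 of 15, LSM11 in 9, SLBP in 7 and CSTF2 in 5, with the direction the same throughout. The 3 most abundant genes of the list, XRN2, CPSF3 and UPF1, had log2 fold changes of 0.23, 0.21 and −0.25 and were not called (limma adjusted p 0.190, 0.200 and 0.311).

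Histone chaperones and S phase genes gave 1 call each, both lower. Over all tested entries 5.71% were called lower and 5.26% higher, so these counts were near the background. Without overlap, 3 chaperone and assembly genes lay below and 2 above (background 23.4% and 22.8%). Of 14 chaperone and assembly genes tested, ATRX, a chromatin remodeller that deposits the H3.3 variant, fell from 7.62 and 6.19 FPKM in HCC827 to 4.44, 4.30 and 4.201 FPKM in HCC827/GR (log2 fold change −0.57, standard error 0.11, limma adjusted p = 0.0449). Its call was lost in 11 of 15 alternative fits. SSRP1, SUPT16H and RBBP7, the most abundant of the list, were not called, with log2 fold changes of −0.11, −0.25 and 0.39. Of 21 S phase and proliferation genes tested, 20 had a negative log2 fold change, and the median was −0.37. Without overlap, 8 lay below and 0 above (background 23.4% and 22.8%). Their levels summed to 434.5, 432.8 and 517.3 FPKM in HCC827/GR and 553.9 and 713.6 FPKM in HCC827 replicates 2 and 3. In each of the 21 genes HCC827 replicate 3 was higher than replicate 2, and in some replicate 2 lay below the HCC827/GR mean. The median without each HCC827 library was not computed. TOP2A, the DNA topoisomerase of proliferating cells, fell from 151.5 and 156.7 FPKM in HCC827 to 92.6, 84.2 and 100.2 FPKM in HCC827/GR (log2 fold change −0.74, standard error 0.11, limma adjusted p = 0.0246), a call lost in 7 of 15 alternative fits. PCNA, the sliding clamp of DNA polymerase, had 49.4, 56.0 and 69.6 FPKM in HCC827/GR and 71.95 and 94.5 FPKM in HCC827 (log2 fold change −0.51, limma adjusted p = 0.196). MCM7, a subunit of the replicative helicase, had a log2 fold change of −0.29 (limma adjusted p = 0.264).

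**Figure D5:**
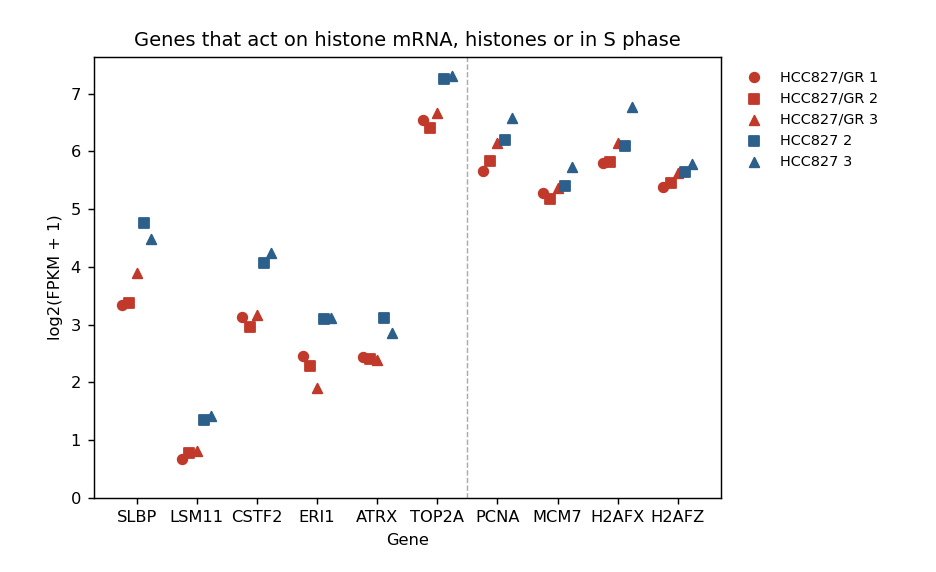
Level as log2(FPKM + 1) of 10 genes in each HCC827/GR library (red) and each HCC827 library (blue), with symbols for the replicates. The 6 genes left of the dashed line, SLBP to TOP2A, were called lower in HCC827/GR, and the 4 to the right were not called. The groups lay apart in every gene shown except H2AFX, so this does not separate the sides.

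A list of histone genes classed as replication-independent was set beside the members. Whether each of them lacks the stem-loop or is made outside S phase was not checked. Of 12 such genes, 10 had an entry and 9 were tested. None was called in either direction by limma, at an adjusted p under 0.05. H2AFX, the H2A form phosphorylated at DNA breaks, had 54.9, 55.1 and 69.4 FPKM in HCC827/GR and 67.6 and 108.3 FPKM in HCC827 (log2 fold change −0.52, standard error 0.24, limma adjusted p = 0.256). H2AFZ, a variant found at active promoters, had 40.7, 43.0 and 48.5 FPKM against 48.7 and 54.3 FPKM (log2 fold change −0.22, limma adjusted p = 0.310). H2AFV had 37.0, 10.7 and 47.4 FPKM against 43.6 and 53.1 FPKM (log2 fold change −0.82, limma adjusted p = 0.489). H2AFX overlapped between the groups, as did H2AFV, while H2AFZ did not. Over the 9 tested, the median log2 fold change was −0.35 and 7 were negative.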

How the data were processed

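The authors trimmed reads with Cutadapt, checked them with FastQC, mapped them with Bowtie2 and TopHat2 and assembled transcripts with StringTie. They deposited 1 table of FPKM values made with StringTie and Ballgown. Versions are not given in the sources used here. The processing notes name hg18, whereas the transcript identifiers were placed here with GENCODE release 29 (GRCh38). The labels describe a small RNA, single-end library and the study's methods a ribosomal RNA-depleted, paired-end library, so the library type is uncertain. FPKM carries no counts, so depth is unknown and no counting error could be given. In the table, 1 FPKM column, with a parental name, matched no deposited sample and was not used, and it bears on HIST2H2AA3 as stated beside that gene. Columns of the authors' own comparison were not used.

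Entries averaging 0.5 FPKM or more were compared by limma 3.58.1 in R 4.3.3 (a two-sided moderated fit with a variance trend) after conversion to log2(FPKM + 1), and fold changes of low entries are understated by the pseudocount. The Benjamini-Hochberg adjustment ran over all 16189 entries tested. On simulated data, 200 entries with a mean log2(FPKM + 1) above 1 were changed by 2 on that scale. Of these, 162 were recovered, with 14 false calls. No entry at a lower mean was changed, so the recovery of low entries is unknown. The values were drawn over all tested entries from a normal spread that was slightly too low, since it made no allowance for the group means. Zeros in single libraries were not simulated, so the recovery among the histone members is unknown. Members, gene lists and tests were chosen with earlier results of these data known. Named members were the 12 highest in mean FPKM, those with an adjusted p under 0.05 and those at 0 in all of 1 group and above 0 in all of the other. Of each list, genes with an adjusted p under 0.05 and the 3 highest were named. Others (HIST1H3H, HIST2H4A, HIST1H1B, HIST1H1C, HIST1H2AG, HIST3H2BA, RN7SK, RN7SL2 and PECAM1) were named after their values were seen. Alternatives were another pseudocount, filter, scaling or model, summed entries and each library left out. Python 3.11.15, numpy 2.4.6, pandas 2.3.3 and matplotlib 3.10.9 were used.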

Additional observations from a re-analysis of the deposited data

How the results depend on the processing

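HIST2H2AA3 was called higher under 14 of 15 alternative fits (log2 fold change 6.86 to 7.88). All of these fits rest on the same 2 HCC827 libraries or on 1 of them, and the unused parental-named column leaves this call uncertain. Over 31 named genes and 464 refits, no call reversed, 396 stayed on their side of the threshold, 62 lost it and 6 gained it. Only genes called in the main fit could lose a call, and many named genes were not called there. Of 15 fits each, ERI1 lost its call in 12, ATRX in 11, LSM11 in 9 and HIST2H4B in 8. SLBP and TOP2A lost it in 7, CSTF2 in 5, HIST1H4C in 2 and HIST2H2AA3 in 1. Some uncalled genes changed sign, among them HIST1H3C (log2 fold change −0.896 to 6.17) and HIST1H4E (−0.323 to 2.38). The causes of the changes below were not tested. With no filter, 504 entries were called higher, 1 member lower, 1 gene of the histone mRNA list, 0 chaperone genes and 0 S phase genes. Another fit had a library-size covariate, the log2 sum of FPKM values at or below the upper quartile of a library's non-zero values. It called 120 entries higher and 127 lower, and 0 members lower, with 0 in each of these 3 lists. With same-protein copies summed, 0 members were called lower. The chaperone count was 0 with protein-coding totals equal, without the trend and with entries summed. Leaving out 1 library gave 181 to 450 entries higher, 248 to 434 lower, 1 to 4 members higher and 1 to 3 lower, 0 to 3 histone mRNA genes, 0 chaperone genes and 0 to 1 S phase genes. It gave 15 to 26 members wholly below and 1 to 5 wholly above, an alternative added after the data were seen. Without HCC827 replicate 3, 4 members were called higher, HIST1H3C among them, and the median log2 fold change over the 51 members lay from −0.593 to −2.16e-05 when 1 library was left out.

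Same-numbered replicates did not deviate together (r = 0.0328 for replicate 2 and 0.0147 for replicate 3), so the numbers were not taken as pairs. A replicate block called 0 entries higher and 0 lower, 0 members and 0 genes of each list by limma. With 5 libraries that model leaves hardly any residual degrees of freedom, so its lack of calls says little about the results. It is counted among the alternative fits above. FPKM gives no depth, so no limit of detection could be set.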
